A study of Mus musculus with 7 samples.

Results

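The BCL2 family controls whether a cell opens the outer membrane of its mitochondria, the step that releases cytochrome c and starts the intrinsic pathway of apoptosis. Effector proteins such as BAX, BAK and BOK form the pores, anti-apoptotic proteins such as BCL-XL and MCL1 hold the effectors in check, and BH3-only proteins such as BAD, BID, PUMA and BIM signal stress by binding to the anti-apoptotic members or to the effectors. In the ovary the family is known for deciding the loss of oocytes during follicle development, and BCL2L10, also called DIVA or BOO, is known as a member enriched in oocytes. The genes described here were chosen by name. Of the 10 listed, 9 have a row among the 22877 genes of the deposited table. They were grouped as effectors (*Bax*, *Bok*), anti-apoptotic genes (*Bcl2l1*, *Bcl2l10*, *Mcl1*) and BH3-only genes (*Bad*, *Bid*, *Bbc3*, *Bcl2l11*). The listed effector without a row is *Bak1*, so no value can be given for it.

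RNA was sequenced from the oocytes of secondary follicles, isolated from C57BL/6J mice at 8 weeks of age, with 5 oocytes pooled in each library. MFN1, the protein whose loss was studied, fuses mitochondria. The 2 groups were WT littermates, with 4 libraries, and *Mfn1* fl/fl mice with a *Cre* transgene driven by the *Zp3* promoter, called *Mfn1*-/-, with 3 libraries. The design text gives an n of 3 for each genotype, whereas the sample titles give 4 WT libraries, and how many mice each pool came from is not stated. *Zp3-Cre* is active in oocytes once follicles start to grow, and the deletion is meant for the oocyte alone.

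The deposited table gives 1 mean of normalized counts per genotype for each gene, and the columns of the authors' own comparison were not used, so neither the spread between libraries nor a test can be given and all differences below are descriptions of the authors' means. In 100% of the genes the column of totals lay within 1% of the sum that 3 *Mfn1*-/- and 4 WT libraries with these means would give. The means summed over all genes to 130160 normalized counts in WT and 142576 in *Mfn1*-/-, and the depth of single libraries is unknown. *Mfn1* itself was at 0.616 normalized counts in WT and at 0.0577 in the deleted oocytes. All 12 oocyte marker genes had a row, led by *Zp3*, and summed to 1778 normalized counts in WT and 2014 in *Mfn1*-/-. Of these, 9 were higher and 3 lower in *Mfn1*-/-. Of 14 granulosa cell markers 12 had a row, and they summed to 3.53 in WT and 3.24 in *Mfn1*-/-, with 3 higher and 9 lower in *Mfn1*-/-. The most abundant of them differed in opposite directions, *Esr2* with 1.86 in WT and 0.929 in *Mfn1*-/- (log2 difference -0.93) and *Inha* with 0.954 and 1.87 (0.90), and 7 of the 12 had a mean under 0.1 over the libraries. The 6 of 8 theca and stroma markers with a row summed to 0.449 and 0.598 in the same order, with 4 higher and 2 lower in *Mfn1*-/-. Most of each sum was *Hsd3b1* (0.245 in WT and 0.391 in *Mfn1*-/-), and 5 of the 6 had a mean under 0.1. The 4 of 6 immune markers with a row summed to 0.75 and 7.64, with 1 higher and 3 lower in *Mfn1*-/-. The 1 higher was *Cd68* (0.672 and 7.58), which made up nearly all of the sums. *Lyz2* was at the lowest mean of the table, 0.01, in *Mfn1*-/- and *Ptprc* and *Adgre1* had no row. *Inha*, *Lyz2*, *Ptprc* and *Adgre1* were picked out after their values were seen. The part of other cells in the results below was not tested, and in pooled oocytes fewer cells with a transcript cannot be told apart from less of it per cell.

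Most members of the family hold a BH3 motif, a short helix through which they bind each other, with a leucine, 3 further residues, a glycine and an aspartate. The pattern was looked for in the longest coding sequence among the protein-coding transcripts of each gene in GENCODE M21. The stretches are shown because this motif names the BH3-only group and recurs in genes of very different level. Each is 45 bases long, 5′ to 3′ on the coding strand, with the 6 codons of the pattern in capitals.
Bax: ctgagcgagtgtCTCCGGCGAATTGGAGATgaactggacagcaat
Bok: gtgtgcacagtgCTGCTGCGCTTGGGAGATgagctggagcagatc
Bcl2l1: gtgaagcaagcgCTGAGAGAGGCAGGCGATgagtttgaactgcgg
Mcl1: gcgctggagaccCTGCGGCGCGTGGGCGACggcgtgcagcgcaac
Bid: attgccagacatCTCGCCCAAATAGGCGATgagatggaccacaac
Bcl2l11: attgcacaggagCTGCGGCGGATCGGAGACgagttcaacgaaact
Bad: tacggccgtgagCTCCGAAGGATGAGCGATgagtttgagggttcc
Bbc3: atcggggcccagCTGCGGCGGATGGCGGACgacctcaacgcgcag
The pattern occurred 1 time in each coding sequence shown. In *Bad* and *Bbc3* the codon for glycine was replaced by one for serine (AGC) and one for alanine (GCG), a change accepted in the search where no glycine form was found. The pattern lay at codons 63 to 68 of 192 in *Bax*, 194 to 199 of 331 in *Mcl1* and 151 to 156 of 204 in *Bad*. In the 191 codons of *Bcl2l10* neither form was found, so no stretch of it is shown.

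Among the anti-apoptotic genes, the authors' means were dominated by *Bcl2l10* (chromosome 9 of GRCm38, 75347758 to 75351632, plus strand). It averaged 608 normalized counts in WT and 477 in *Mfn1*-/-, so that the ratio (*Mfn1*-/- over WT) was 0.785 and the difference -131 normalized counts. With a pseudocount of 0.1 added to both means, its log2 difference (*Mfn1*-/- minus WT) was -0.35. By its mean over the 7 libraries, *Bcl2l10* was number 24 of all genes in the table. Of the 52 other genes within 2-fold of that mean, 9.62% had a log2 difference as low or lower, and their median was 0.16. Most genes of this level thus lay on the other side of 0. *Bcl2l10* made up 0.467% of the summed means of WT and 0.335% of those of *Mfn1*-/- oocytes.

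The other members all had means under 10 normalized counts. The scale of the deposited values is not named, so levels of different genes were also set side by side after division by the exonic length of the gene. *Bcl2l10* exceeded *Bax*, the next member by level, 184-fold as deposited and 237-fold per exonic kilobase in WT oocytes. In *Mfn1*-/- oocytes it exceeded *Bax* 79.0-fold as deposited and 102-fold per exonic kilobase. *Bcl2l10* therefore held 99.6% of the summed normalized counts of the 3 anti-apoptotic genes in WT and 99.1% in *Mfn1*-/- oocytes, or 99.9% and 99.7% per exonic kilobase.

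*Mcl1* (chromosome 3, 95658788 to 95663176, plus strand) encodes a short-lived anti-apoptotic protein. Against 1.64 normalized counts in WT, it had 3.57 in *Mfn1*-/-, which gives a ratio of 2.18 and a log2 difference of 1.08. It was the 1 member of the 9 with a log2 difference of at least 1, a 2-fold change, whereas 4.89% of all genes were that much higher. None lay at -1 or below (0 of the 9), against 2.77% of all genes. The split of all genes depends on the scaling, with 3.58% higher and 4% lower once the median of the expressed genes (mean of at least 1) was subtracted. Among the 2884 other genes within 2-fold of its mean, 5.65% had a log2 difference as high as that of *Mcl1*. The median of the expressed genes was 0.16, and relative to it *Mcl1* lay at 0.92, short of 2-fold. After each genotype's means were divided by their sum it lay at 0.95, and with a pseudocount of 1 at 0.79, also short of it.

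*Bcl2l1* (chromosome 2, 152780668 to 152831728, minus strand), which encodes BCL-XL, had nearly equal means, 0.795 normalized counts in WT and 0.794 in *Mfn1*-/-. The log2 difference was -0.0016, and -0.16 relative to the expressed genes. The 3 anti-apoptotic genes thus had the widest range of the groups, from -0.35 to 1.08, with a median of -0.0016. A shift common to all genes leaves the gap between these genes as it is. The log2 difference of *Mcl1* exceeded that of *Bcl2l10* by 1.43 and that of *Bcl2l1* by 1.08. With pseudocounts of 0.01 and 1, the gap between *Mcl1* and *Bcl2l10* was 1.47 and 1.14.

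**Figure D1:**
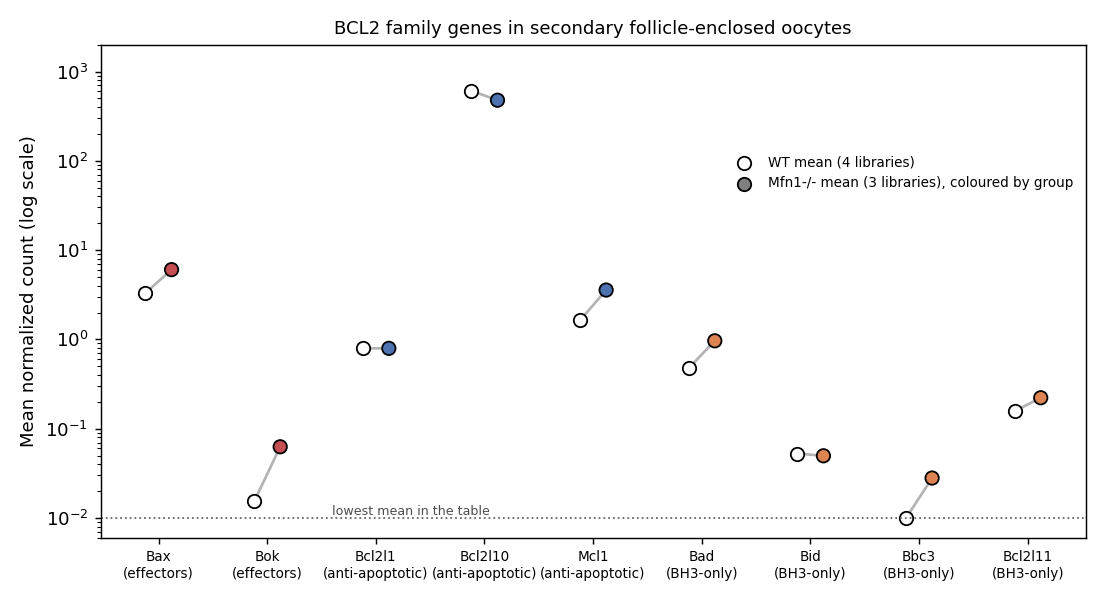
Authors' mean normalized count (log axis) of each BCL2 family gene with a row in the table, in WT (open points) and Mfn1-/- oocytes (filled points, coloured by group), with the lowest mean of the table as a dotted line and no error bars because only genotype means were used. Bcl2l10 lies at 608 in WT and 477 in Mfn1-/-, all others under 10, and the WT mean of Bbc3 is on the dotted line.

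Of the effectors, *Bax* (chromosome 7, 45461697 to 45466898, minus strand) was the more abundant. It had 3.31 normalized counts in WT and 6.04 in *Mfn1*-/-, with a ratio of 1.82 and a log2 difference of 0.85. Of the 2350 other genes within 2-fold of its mean, 7.15% had a log2 difference as high. Relative to the expressed genes *Bax* lay at 0.69, and with a pseudocount of 1 at 0.71. *Bax* held nearly the same share of the summed normalized counts of the 6 pro-apoptotic members in each genotype, 82.3% in WT and 82.0% in *Mfn1*-/-. Of its 1576 exonic bases, 192 overlap a second annotated gene on the same strand, *Gm45808*, which has no row.

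*Bok* (chromosome 1, 93685660 to 93695764, plus strand), a relative of BAX and BAK, was close to the lowest mean. WT had 0.0153 normalized counts of it and *Mfn1*-/- 0.0627. The ratio of 4.10 is the highest among members with both means above the lowest value, but on the log2 scale the difference depends on the pseudocount, with 0.50 at 0.1, 1.52 at 0.01 and 0.07 at 1. Of the 5013 other genes within 2-fold of its mean, 7.48% had a log2 difference as high.

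Of the BH3-only genes, *Bad* (chromosome 19, 6941861 to 6951899, plus strand) had the highest mean. BAD binds BCL-XL and is kept inactive by phosphorylation. In WT it averaged 0.476 normalized counts and in *Mfn1*-/- 0.964, and the ratio was 2.03. The log2 difference was 0.89 with a pseudocount of 0.1, 1.00 with 0.01 and 0.41 with 1. It lay at 0.73 relative to the expressed genes. Of the 4080 other genes within 2-fold of its mean, 12.1% had a log2 difference as high. *Bad* shares 524 of its 2558 exonic bases with *Gpr137* on the opposite strand, which had 0.783 normalized counts in WT and 0.97 in *Mfn1*-/-. The library kit does not mark strand, so reads from the shared bases cannot be assigned to one of these genes.

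*Bcl2l11* (chromosome 2, 128126038 to 128162547, plus strand), which encodes BIM, was at 0.157 normalized counts in WT and 0.222 in *Mfn1*-/-, a log2 difference of 0.33. Of the 4823 other genes within 2-fold of its mean, 29.9% had a log2 difference as high. *Bid* (chromosome 6, 120891930 to 120916853, minus strand), whose protein is cleaved by caspase 8 to link death receptors to mitochondria, had 0.0527 normalized counts in WT and 0.0497 in *Mfn1*-/-, a log2 difference of -0.03. It shares 628 of its 3550 exonic bases with its relative *Bcl2l13* on the opposite strand (0.239 normalized counts in WT and 0.194 in *Mfn1*-/-). As for *Bad*, reads from the shared bases cannot be assigned to one of these genes. *Bbc3* (chromosome 7, 16308393 to 16318205, plus strand), which encodes PUMA, a target of p53 and p63, was listed at the lowest mean in WT and had 0.028 normalized counts in *Mfn1*-/-. No ratio is given for it, and its log2 difference was 0.22 with a pseudocount of 0.1.

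**Figure D2:**
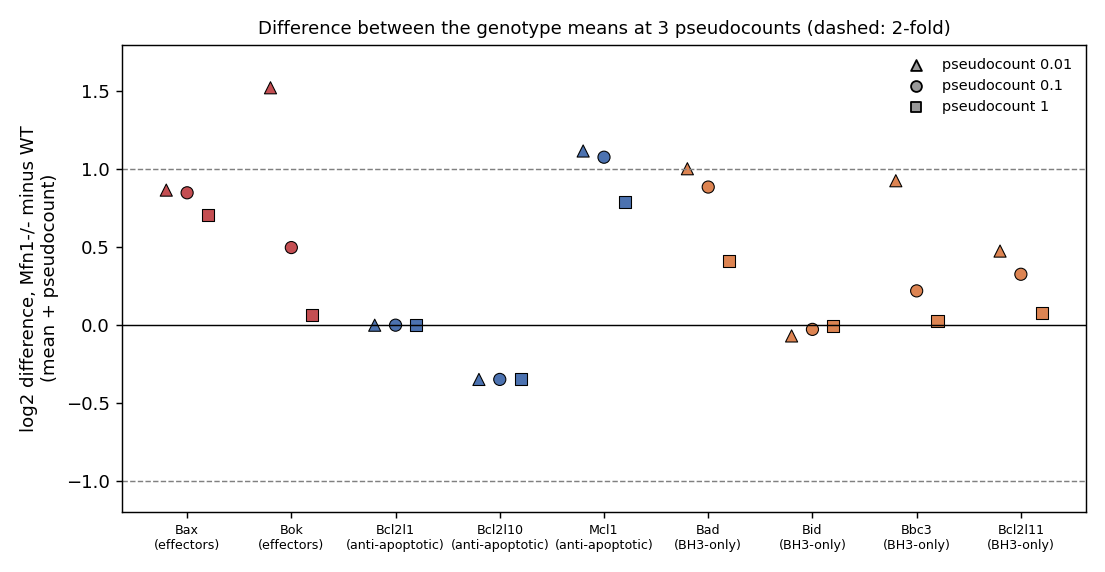
Log2 difference (Mfn1-/- minus WT) of the 9 BCL2 family genes after adding a pseudocount of 0.01 (triangles), 0.1 (circles) or 1 (squares) to both authors' means, with dashed lines at a 2-fold change. Bcl2l10 stays at -0.35 in all 3, Mcl1 runs from 0.79 to 1.12, and Bok runs from 0.07 to 1.52.

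Across the 9 genes, 6 had a log2 difference above 0 and 3 below, while 56.7% of all genes lay above 0 and 42.9% below. Their median was 0.33, against 0.04 for all 22877 genes. Over the 7 libraries 6 of the 9 had a mean of at least 0.1, and *Bok*, *Bid* and *Bbc3* did not. The medians of the groups were 0.67 for the 2 effectors, 0.27 for the 4 BH3-only genes and -0.0016 for the 3 anti-apoptotic genes. Between the *Bax* and *Bcl2l10* log2 differences the gap was 1.20, and between those of *Bad* and *Bcl2l10* it was 1.24. At 1.5-fold, 3 of the 9 were higher (*Mcl1*, *Bax* and *Bad*), against 12.4% of all genes, and 0 lower, against 6.89%.

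Summed over genes, the 6 pro-apoptotic members had 4.02 normalized counts in WT and 7.37 in *Mfn1*-/-, a ratio of 1.83. The 3 anti-apoptotic members came to 610.4 in WT and 481.4 in *Mfn1*-/-, a ratio of 0.789. Pro-apoptotic counts were therefore 0.659% of anti-apoptotic counts in WT and 1.53% in *Mfn1*-/-. Without *Bcl2l10*, the anti-apoptotic sum was 2.44 in WT and 4.36 in *Mfn1*-/-, and the ratio of 1.79 was close to that of the pro-apoptotic genes. The pro-apoptotic sum was then 1.65 times the anti-apoptotic sum in WT and 1.69 times in *Mfn1*-/-. Most of the pro-apoptotic sum was *Bax* (3.31 in WT and 6.04 in *Mfn1*-/-), and most of the other was *Mcl1* (1.64 and 3.57). The balance of the sums thus differed between the genotypes when *Bcl2l10* was counted and hardly did without it. With *Bcl2l10*, the balance rests on its place among the anti-apoptotic genes, which was set by name. What its protein does in these oocytes was not tested. No BH3 pattern was found in its coding sequence, which does not decide its group, because the pattern was found in members of each group.

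**Figure D3:**
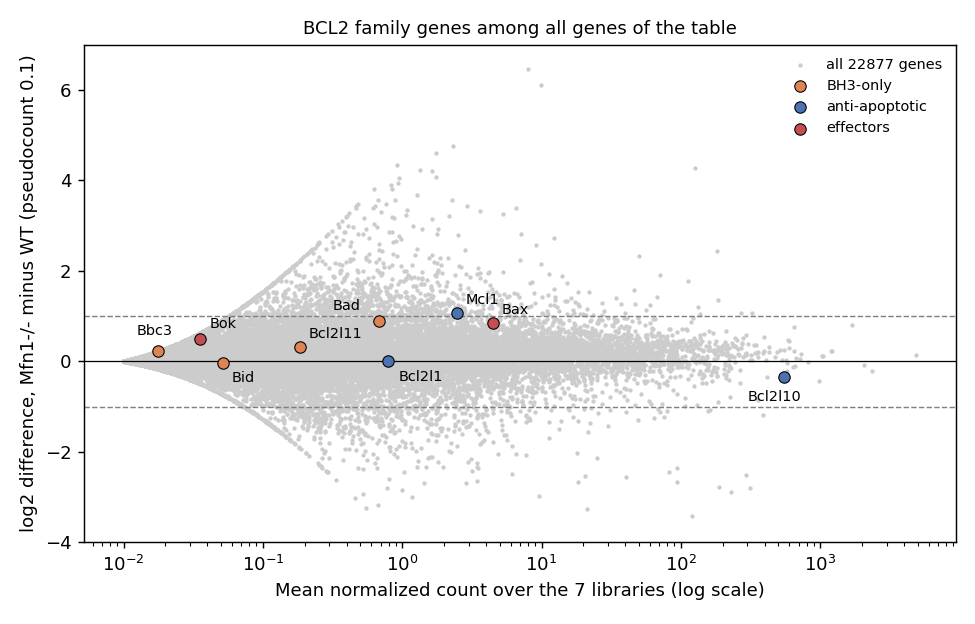
Log2 difference (Mfn1-/- minus WT, pseudocount 0.1) of all 22877 genes (grey) and of the 9 BCL2 family genes (coloured by group) against the mean normalized count over the 7 libraries (log axis), with dashed lines at a 2-fold change. Mcl1 lies just above the upper line at 1.08, Bax and Bad just below it, and Bcl2l10 at the right with -0.35.

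For *Mcl1*, *Bax* and *Bad*, the members with the highest log2 differences, the promoter sequence of RefSeq (GRCm38.p6) from 250 bases before to 50 after the start site is shown, because RefSeq places a start site of each gene there. *Bad* has a second RefSeq promoter 701 bases further in the gene, which is not shown, and which of the start sites these oocytes use was not measured. It is written 5′ to 3′ on the strand of the gene, and capitals mark the GC box, GGGCGG, on either strand.
Mcl1, chr3:95658471-95658770, plus strand: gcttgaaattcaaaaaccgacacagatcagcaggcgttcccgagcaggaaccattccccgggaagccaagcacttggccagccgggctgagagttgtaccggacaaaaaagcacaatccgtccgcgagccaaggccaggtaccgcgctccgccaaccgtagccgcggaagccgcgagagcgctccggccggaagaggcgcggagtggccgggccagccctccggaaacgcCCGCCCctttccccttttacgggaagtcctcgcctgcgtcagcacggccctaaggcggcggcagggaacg
Bax, chr7:45466849-45467148, minus strand: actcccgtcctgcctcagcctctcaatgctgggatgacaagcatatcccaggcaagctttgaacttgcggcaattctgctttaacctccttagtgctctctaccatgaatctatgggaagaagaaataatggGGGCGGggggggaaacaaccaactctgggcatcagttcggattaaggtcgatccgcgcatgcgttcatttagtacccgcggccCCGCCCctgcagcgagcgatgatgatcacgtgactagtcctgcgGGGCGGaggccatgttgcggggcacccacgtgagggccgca
Bad, chr19:6941611-6941910, plus strand: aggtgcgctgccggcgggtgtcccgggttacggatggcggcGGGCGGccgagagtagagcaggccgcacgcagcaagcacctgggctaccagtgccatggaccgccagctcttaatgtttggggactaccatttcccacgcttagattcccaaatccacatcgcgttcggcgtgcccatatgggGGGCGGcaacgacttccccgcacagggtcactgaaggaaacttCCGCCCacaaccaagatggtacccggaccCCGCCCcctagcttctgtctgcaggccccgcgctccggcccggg
A promoter was found for 9 of the 10 listed genes, and none for *Bcl2l10*. The start site of the *Bad* and *Bax* windows is that of the GENCODE gene, and that of *Mcl1* lies 67 bases from it. The GC box occurred in 7 of the 9 windows nearest the gene start, with 1 match in *Mcl1*, 3 in *Bax* and 4 in *Bad*, and in 35.7% of the 32851 promoters of the same length. The E-box, CANNTG, was found in 5 of the 9 and in 72.3% of all promoters, and the CCAAT box in 1 (*Bcl2l11*) and in 37.4%. The second promoter of *Bad* held 0 GC boxes and 1 CCAAT box. The element bound by ATF4 with C/EBP factors (TGATGNAA), the antioxidant response element (TGACNNNGC) and the TATA box (TATAAA) were searched on both strands as well. Each was found in 0 of the 9 windows nearest the gene start, and in 3.97%, 12.4% and 13.6% of all promoters. A further RefSeq promoter of *Bcl2l1*, not among the 9, held 1 antioxidant response element. None of the motifs searched lies within another, though neighbouring matches can share bases. A match is a match of letters only.

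Other genes that act with the family were taken from lists by role. Of 15 further BCL2 relatives, 13 had a row and 0 were 2-fold higher (4.89% of all genes) or lower (2.77%), with a median log2 difference of 0.01. The most abundant was *Bnip3l*, a mitophagy receptor, with 9.09 normalized counts in WT and 10.3 in *Mfn1*-/-. *Bcl2* itself and the BH3-only genes *Pmaip1*, which encodes NOXA, *Hrk* and *Bik* were picked out after their values were seen. *Bcl2* was near the lowest mean in both genotypes (0.0118 in WT and 0.0128 in *Mfn1*-/-). *Pmaip1* had 0.0568 normalized counts in WT and 0.198 in *Mfn1*-/-, a log2 difference of 0.93. *Hrk* had 0.0133 and 0.0611 (0.51), and *Bik* went the other way with 0.603 and 0.395 (-0.51). With a pseudocount of 0.01, *Pmaip1* lay at 1.64 and *Hrk* at 1.61, past 2-fold (10.5% of all genes), and *Bik* at -0.60. Of the 13 genes, 7 were higher and 6 lower in *Mfn1*-/-.

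Downstream of the pores, 14 of 14 genes had a row and 2 were at least 2-fold higher (4.89% of all genes), with a median of 0.19. *Casp6*, an executioner caspase, had 0.449 normalized counts in WT and 1.78 in *Mfn1*-/-, a log2 difference of 1.78. *Endog*, a mitochondrial nuclease, had 11.5 in WT and 23.5 in *Mfn1*-/-, a log2 difference of 1.02 that was 0.87, short of 2-fold, relative to the expressed genes. *Cycs*, which encodes cytochrome c and was the most abundant of the list, had 28 in WT and 21 in *Mfn1*-/-, a log2 difference of -0.41.

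BAD is phosphorylated by PIM, AKT and other kinases and then held by 14-3-3 proteins. Of 12 kinases and phosphatases of BAD, 2 were at least 2-fold higher (4.89% of all genes) and the median was 0.08. *Pim2* had 0.818 normalized counts in WT and 2.49 in *Mfn1*-/-, a log2 difference of 1.50, and *Pim3* had 0.707 and 2.21, a log2 difference of 1.52. Among the 7 genes of 14-3-3 proteins, *Sfn* was the 1 that was 2-fold higher, against 4.89% of all genes (5.14 normalized counts in WT and 11.9 in *Mfn1*-/-, log2 difference 1.20). The most abundant, *Ywhae* (11.4 and 12.3) and *Ywhaz* (11.7 and 11.9), differed less, and the median of the 7 was 0.11. With a pseudocount of 1, *Casp6*, *Endog*, *Pim2* and *Pim3* lay at 0.94, 0.97, 0.94 and 0.91, short of 2-fold, and *Sfn* at 1.07. *Pim1*, picked out after its values were seen, had 0.0544 in WT and 0.147 in *Mfn1*-/-. Its log2 difference was 0.68 with a pseudocount of 0.1 and 1.29 with 0.01, past 2-fold (10.5% of all genes).

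Of 6 genes of membrane partners, 0 were 2-fold higher (4.89% of all genes) or lower (2.77%), with *Vdac3*, a channel of the outer membrane, the most abundant (19.6 normalized counts in WT and 21.4 in *Mfn1*-/-) and a median of 0.12. Of 7 genes for the turnover of MCL1, 0 were that much higher or lower, against the same 4.89% and 2.77%, and *Usp9x*, which removes ubiquitin from MCL1, had 2.12 in WT and 1.5 in *Mfn1*-/-, a log2 difference of -0.47. Of 11 transcription factors known to act on BCL2 genes, 0 were 2-fold higher (4.89% of all genes) or lower (2.77%) and the median was 0.22, with *Atf4* the most abundant at 45.5 normalized counts in WT and 55.4 in *Mfn1*-/-. *Jun*, picked out after its values were seen, had 0.117 in WT and 0.0213 in *Mfn1*-/-, a log2 difference of -0.84. With a pseudocount of 0.01 *Jun* lay at -2.02, past 2-fold (6.66% of all genes). Of the 11, 7 were higher and 4 lower in *Mfn1*-/-.

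**Figure D4:**
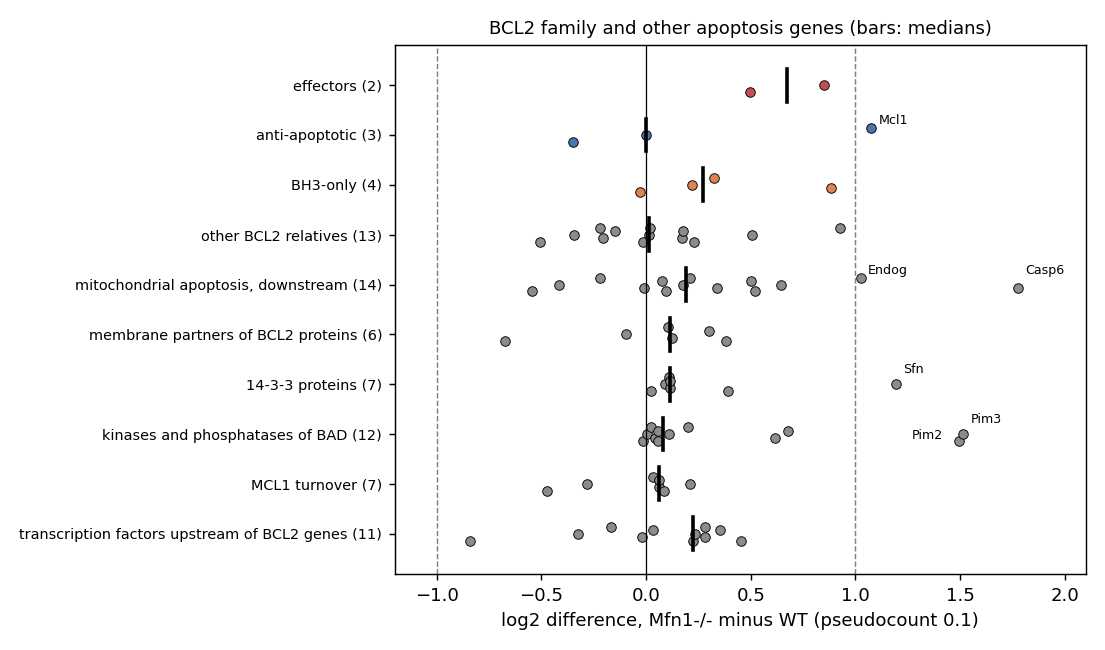
Log2 difference (Mfn1-/- minus WT, pseudocount 0.1) of each BCL2 family gene by group and of the genes in each list of related role, with the number of genes that have a row in brackets, a black bar at each median and dashed lines at a 2-fold change. The genes past the upper line are Mcl1, Casp6, Endog, Sfn, Pim2 and Pim3, and none lies past the lower line.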

How the data were processed

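The libraries were made from Smart-Seq2 cDNA with a Nextera XT kit and sequenced as 75 bp paired-end reads. Before deposit the authors cut adapters (Cutadapt), dropped reads of low quality (FASTX-Toolkit), mapped the rest to GRCm38/mm10 (STAR) and counted reads per gene. The deposited signal is the authors' mean of normalized counts per genotype and their sum over libraries, and how the counts were normalized is not given in the sources used here. The authors' p-values, FDR, ratios and fold changes in the table hold their own comparison and were not used. There were 0 columns of single libraries, so the DESeq2 test of the study, SDs and depth per library could not be computed. Log2 differences used a pseudocount of 0.1, with no minimum mean and a 2-fold threshold. Genes were named if they were BCL2 members, *Mfn1*, the most abundant gene of a list, or in a list, at least 2-fold different and with a mean of at least 0.1. Overlapping genes and a few genes picked out after their values were seen were named as well, the latter marked in the text. Members and lists were chosen with earlier results of these data known. The counting of calls was run on simulated means without noise, which checks the code only and not how reliable a call is at a low mean. Exonic length, overlaps and coding sequence came from GENCODE M21. Transcripts of other genes with at least 75 bases at 95% identity to a protein-coding transcript of a member were looked for with blastn 2.17.0. They were found for *Bax*, *Bad* and *Bak1* only, in the overlapping gene in each case (*Gm45808*, *Gpr137* and *Ggnbp1*). The exonic overlaps count all annotated exons, so the overlap of *Bid* with *Bcl2l13* is given although no such match was found. Python 3.11.15, numpy 2.4.6, pandas 2.3.3, matplotlib 3.10.9 and Biopython 1.88 were used.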

Additional observations from a re-analysis of the deposited data

How the results depend on the processing

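The number of members at least 2-fold higher, 1 as reported, was 3 with a pseudocount of 0.01 (*Mcl1*, *Bok* and *Bad*), 3 at a 1.5-fold threshold, and 0 with a pseudocount of 1, after subtraction of the median of expressed genes, and after division by the sums. Without a pseudocount, chosen after seeing the data, it was 4, of which *Bbc3* has a WT mean at the lowest value. Under these settings 10.5%, 12.4%, 0.918%, 3.58%, 3.99% and 12.8% of all genes were as much higher. With minimum means of 0.1 and 1 the number was 1 of 6 and 1 of 3 members. Of the genes kept, 7.27% and 5.49% were as much higher, and 4.26% and 3.24% as much lower. The number lower was 0 in every setting run. The median log2 difference of the members, 0.33 as reported (all genes 0.037), was 0.87 with a pseudocount of 0.01 (0.082), 0.066 with 1 (0.0062), 0.17 after subtraction of the median (-0.12), 0.24 after division by the sums (-0.011), 0.59 and 0.85 with minimum means of 0.1 and 1 (0.11 and 0.16), and 0.87 without a pseudocount (0.098). All 9 members kept the sign of their log2 difference in each of these settings in which they had a value. No paired analysis was possible because the table holds genotype means and no values of single libraries, and leaving out libraries was not run for the same reason. The lowest means, those of *Bok*, *Bbc3* and *Bid*, are the values that depth limits most.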
